A study of Mus musculus with 11 samples.

Results

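The E2F family and the pocket proteins were followed in regulatory T (Treg) cells as the rows of 10 genes in the deposited gene count table: the E2F transcription factor genes E2f1, E2f2, E2f3, E2f4, E2f5, E2f6, E2f7 and E2f8, the retinoblastoma gene Rb1 and its relative Rbl1, which encodes p107. These are 10 of 52997 genes in the table, chosen by name, though with earlier results of these data known. All 10 passed the filter on low counts (a mean above 10 reads in at least 1 group). They were among the 12932 genes tested. The table held 11 Smart-seq2 RNA-seq libraries, each from 1000 double-sorted donor Treg cells. The mice were male C57BL/6 and labelled 15 weeks of age, without a word on whether donor or recipient age is meant. The study's methods describe both donors and recipients as younger than that at transfer. All groups shared 1 design: Treg cells with the vTreg53 TCR transgene (Tcra plus Tcrb, both heterozygous, made from a single visceral fat Treg clone) and a Foxp3-GFP reporter were sorted from pooled spleen and lymph nodes (Spl/LN) of CD45.2+ transgenic mice and transferred into CD45.1+ mice, which kept their own lymphocytes. The recipients were immunized 6 weeks later under the skin with complete Freund's adjuvant. They were boosted 1 week after that in the peritoneum with incomplete Freund's adjuvant. Another week later, their clonotype+ Treg cells were sorted from Spl/LN or from visceral adipose tissue (VAT). The 4 groups were Spl/LN after adjuvant alone (n = 3), Spl/LN after adjuvant/Fat1562 (n = 3), VAT after adjuvant alone (n = 2) and VAT after adjuvant/Fat1562 (n = 3), where Fat1562 is a surrogate agonist peptide for this TCR. The sample labels call the adjuvant alone groups PBS and unimmunized, whereas the study's methods describe adjuvant without peptide. The labels do not say which libraries came from the same recipient.

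E2F proteins bind the promoters of genes for DNA replication and cell division. E2f1, E2f2 and E2f3 are known as activators, E2f4 and E2f5 mostly act with pocket proteins to hold genes off in resting cells, E2f6 represses within a Polycomb complex without pocket proteins, and E2f7 and E2f8 are atypical repressors that bind DNA without a Tfdp partner and restrain genes that the activators switch on. Pocket proteins bind E2F proteins until cyclin-dependent kinases phosphorylate them, and several E2F and pocket protein genes are themselves E2F targets, so their transcripts are known to rise when lymphocytes enter the cell cycle.

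Promoter windows of 250 bases before to 50 bases after a RefSeq start site (build GRCm38.p6, which has the coordinates of mm10) were used for 7 of the 10 genes (all but E2f4, E2f5 and Rb1), as 9 windows. Both strands were searched for 4 forms of the E2F site (TTTCCCGC, TTTGGCGC, TTTCGCGC and TTTGCCGC) and for the CHR element (TTTGAA), a sequence known from cell cycle promoters. An E2F octamer stood in 4 of the 9 windows (1 each of E2f2, E2f3, E2f7 and Rbl1), while 2.26% of all 32851 windows held one. TTTGAA stood in 3 of the 9 (1 each of E2f2, E2f3 and E2f8), beside 17.9% of all windows. A match is a description of the letters and not of binding. The 250 bases before the start site follow for 4 genes that changed in at least 1 comparison below, with the matches in capitals; a match on the opposite strand shows as its reverse complement.
E2f8 (minus strand, chr7:48881597-48881846): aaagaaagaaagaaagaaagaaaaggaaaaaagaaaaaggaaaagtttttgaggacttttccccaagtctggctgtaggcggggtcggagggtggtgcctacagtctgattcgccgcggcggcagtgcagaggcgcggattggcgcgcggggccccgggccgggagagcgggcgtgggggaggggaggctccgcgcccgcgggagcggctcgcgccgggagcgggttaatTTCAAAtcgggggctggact
E2f7 (plus strand, chr10:110745189-110745438): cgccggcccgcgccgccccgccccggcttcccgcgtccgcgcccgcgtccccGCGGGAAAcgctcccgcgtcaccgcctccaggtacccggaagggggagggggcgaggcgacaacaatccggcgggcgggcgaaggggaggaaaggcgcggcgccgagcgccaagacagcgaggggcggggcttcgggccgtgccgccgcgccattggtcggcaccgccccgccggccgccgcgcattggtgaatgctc
E2f3 (minus strand, chr13:29986064-29986313): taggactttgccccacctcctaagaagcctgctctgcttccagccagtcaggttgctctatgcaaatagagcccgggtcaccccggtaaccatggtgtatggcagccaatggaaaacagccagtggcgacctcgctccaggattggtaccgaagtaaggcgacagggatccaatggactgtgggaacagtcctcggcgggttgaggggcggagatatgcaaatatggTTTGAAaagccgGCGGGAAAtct
Rbl1 (minus strand, chr2:157204535-157204784): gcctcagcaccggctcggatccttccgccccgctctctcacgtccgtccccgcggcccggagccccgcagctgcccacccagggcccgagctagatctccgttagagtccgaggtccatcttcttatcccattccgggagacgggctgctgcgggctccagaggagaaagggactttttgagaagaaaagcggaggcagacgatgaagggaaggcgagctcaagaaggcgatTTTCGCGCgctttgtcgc
The TTTGAA match of E2f8 began 20 bases before the start site, on the opposite strand. In E2f3 the TTTGAA match began 23 bases and the E2F octamer 11 bases before the start site, so both elements lay within 1 short stretch. In Rbl1 the octamer began 18 bases before the start site, and in E2f7 it lay farther out, 198 bases before it. E2f2 had its octamer after the RefSeq start site, at base 40 of that transcript (chr4:136172313-136172320), within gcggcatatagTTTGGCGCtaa. The GENCODE annotation begins E2f2 farther downstream, at base 136172394, so by that start the octamer lies before the gene. A second E2f2 window, at a start site inside the gene, held TTTGAA 31 bases before that start. The only E2f1 window and the second E2f3 window also lay at start sites inside the gene (chr2:154569426 and chr13:29984391, minus strand). GENCODE begins these genes at bases 154569892 and 29986063. The bases before the annotated start of E2f1 were therefore not searched, and the lack of a match says nothing about them.

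Across these libraries the family spanned a wide range of levels. Levels were compared between genes per kilobase of merged exon length (GENCODE vM21), from counts normalised to the mean library size with TMM factors. E2f4 was the highest member in all 4 groups, with group means of 82.9 ± 16.6 (SD, n = 3) normalised reads per kb in Spl/LN after adjuvant alone, 89.8 ± 11.8 (n = 3) in Spl/LN after adjuvant/Fat1562, 73.5 ± 2.44 (n = 2) in VAT after adjuvant alone and 85.9 ± 5.57 (n = 3) in VAT after adjuvant/Fat1562. E2f6 was the lowest in all 4 groups, at 1.98 to 4.31 per kb. The range of E2f4 over libraries did not overlap that of the next gene in any group. The pocket protein gene Rbl2 is outside the members, so it has no place in this ranking.

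The order between these ends differed from group to group. E2f2 stood second in Spl/LN after adjuvant alone (51.4 ± 6.41 per kb, n = 3), in Spl/LN after adjuvant/Fat1562 (55.6 ± 10.7, n = 3) and in VAT after adjuvant/Fat1562 (38.7 ± 7.93, n = 3), but below Rb1 and E2f3 in VAT after adjuvant alone (19.1 ± 7.52, n = 2), where its range overlapped those of E2f3 and Rbl1. Rb1 took the second place there with 29.5 ± 0.906 per kb (n = 2), and its range overlapped neither neighbour. E2f8 ranked 5, 5 and 6 in the other 3 groups and 9 in VAT after adjuvant alone, at 5.40 ± 1.44 per kb (n = 2), where only E2f6 was lower and the range of E2f8 overlapped that of E2f7 above it. In VAT after adjuvant/Fat1562, E2f2 and E2f3 overlapped, as did E2f3 with Rbl1, Rbl1 with E2f1, E2f1 with E2f8 and E2f8 with Rb1, so the order of those neighbours is within the spread.

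**Figure D1:**
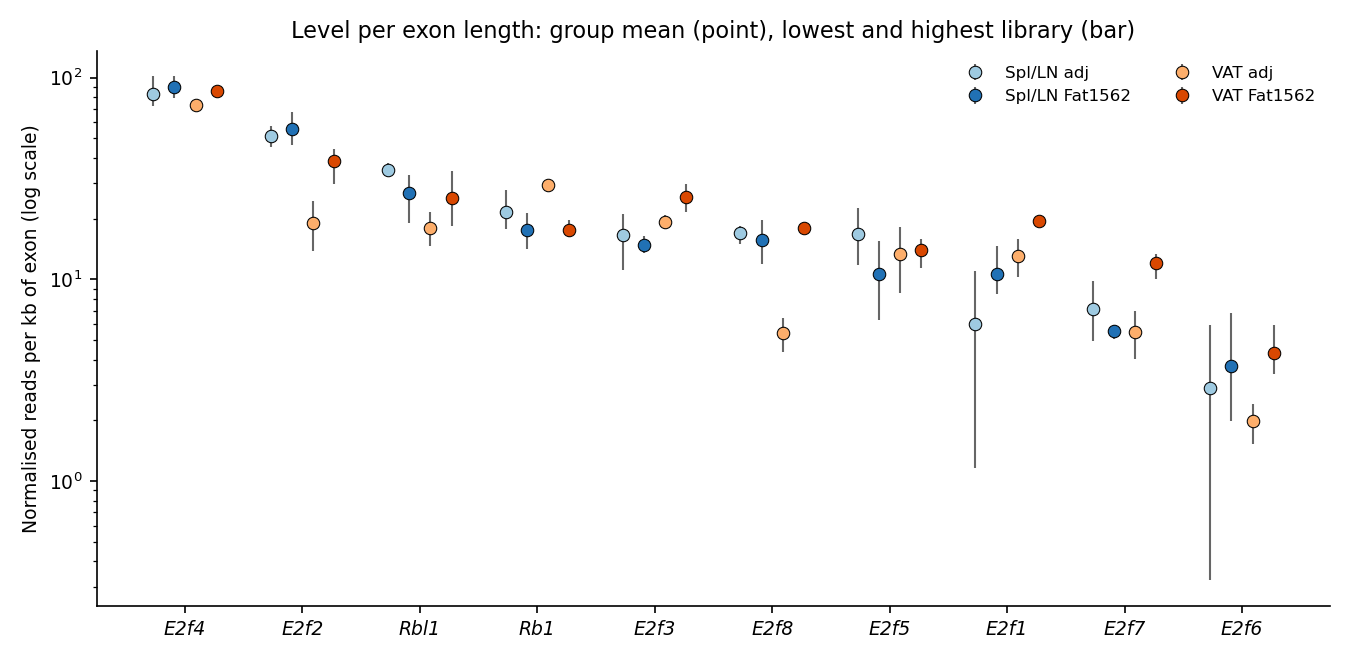
Normalised reads per kb of merged exon length (log scale) for the 10 genes, ordered by their mean over the groups; points are group means and bars run from the lowest to the highest library. E2f4 is highest and E2f6 lowest in every group, and E2f2 and E2f8 have their lowest points in VAT after adjuvant alone.

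The first question was what the peptide did to the family in VAT. E2f8 and E2f2 rose after adjuvant/Fat1562, 3.33-fold and 2.02-fold, and no member fell past the threshold (adjusted p under 0.05, edgeR quasi-likelihood test with Benjamini-Hochberg adjustment over all 12932 genes). Over all genes 8.30% passed in this comparison, 4.33% higher and 3.97% lower, against 2 of the 10 members. A change in the share of dividing cells and a change in transcript per cell cannot be told apart in these bulk libraries. This holds here and for any result that follows, higher or lower.

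E2f8 moved most. In VAT after adjuvant alone it had 23.9 and 34.9 normalised reads (22 and 28 reads as counted), and in VAT after adjuvant/Fat1562 it had 103, 93.6 and 95.7 (92, 92 and 105 reads). All 3 peptide libraries lay above both libraries without peptide, and the peptide libraries lay close to each other. The log2 fold change was 1.73 (SE 0.32, 95% interval 1.06 to 2.40, edgeR adjusted p = 0.00195). Without VAT adjuvant alone replicate 1, the lower of the pair, it was 1.48 and just missed the threshold (edgeR adjusted p = 0.0505). That fit takes the remaining library to vary like those of the other groups.

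E2f2, an E2F activator, had 119 and 67.4 normalised reads in VAT after adjuvant alone and 145, 206 and 217 after adjuvant/Fat1562. The groups did not overlap, although 1 peptide library lay near the higher of the adjuvant libraries. Its log2 fold change was 1.01 (SE 0.26, 95% interval 0.46 to 1.57, edgeR adjusted p = 0.0229). This call was lost without VAT adjuvant alone replicate 2 (log2 fold change 0.67, edgeR adjusted p = 0.264), and also without VAT adjuvant/Fat1562 replicate 2 (0.95, edgeR adjusted p = 0.0792) or replicate 3 (0.90, edgeR adjusted p = 0.0782).

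E2f7, the other atypical repressor, stood just outside the threshold. It had 62.9 and 36.2 normalised reads after adjuvant alone and 91.0, 121 and 112 after adjuvant/Fat1562 in VAT, again without overlap. The log2 fold change was 1.12 (SE 0.34, 95% interval 0.39 to 1.85, edgeR adjusted p = 0.0557). It passed in 6 of the alternative fits, among them DESeq2 (1.10, adjusted p = 0.0302) and the fit to the 2 VAT groups alone (1.11, edgeR adjusted p = 0.0290), and it was 0.78 (edgeR adjusted p = 0.384) without VAT adjuvant alone replicate 2.

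Rb1, the pocket protein that binds the activators, was the only member with a negative estimate in VAT. It had 181 and 173 normalised reads after adjuvant alone and 100, 97.7 and 119 after adjuvant/Fat1562. The groups did not overlap and the peptide libraries were the lower ones. The log2 fold change of −0.75 (SE 0.25, 95% interval −1.27 to −0.23) had an edgeR adjusted p of 0.0737, while DESeq2 gave −0.76 with an adjusted p of 0.0468. Of 38-base stretches in Rb1 exons, 12.7% also occur in other genes, mostly Rcbtb2 and Lpar6 on the opposite strand. Whether the counting used strand is not given in the sources used here. Lpar6 had 92 to 102 reads in VAT after adjuvant alone and 108 to 190 after adjuvant/Fat1562, and Rcbtb2 had 505 to 528 and 454 to 831.

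The remaining members did not pass. E2f1 was measured from few reads, with 49.9 and 32.4 normalised reads after adjuvant alone and 62.9, 61.1 and 59.3 after adjuvant/Fat1562 in VAT (log2 fold change 0.56, SE 0.55, edgeR adjusted p = 0.622). E2f6 had 8.67 and 13.7 against 33.7, 20.4 and 19.1 normalised reads, and its estimate of 1.12 carried an interval of −0.71 to 2.94 (edgeR adjusted p = 0.512). E2f3 (0.41), E2f4 (0.22), E2f5 (0.08) and Rbl1 (0.48) had edgeR adjusted p-values from 0.372 to 0.963. The variation between replicates that the fit assigned was 38.6% for E2f1, 35.2% for E2f5 and 56.6% for E2f6 (biological coefficient of variation), against 14.4% to 23.5% for the other 7 members, so a change of the size seen for E2f2 could not be told from the spread for those 3 genes.

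Counted over the family, 9 of the 10 members had a positive estimate in VAT, and the median log2 fold change was 0.52, against 0.01 over all tested genes. In 7 members (E2f1, E2f2, E2f3, E2f4, E2f6, E2f7 and E2f8) every peptide library lay above both adjuvant alone libraries, which was so for 21.1% of all genes. Rb1 was the only member wholly below, as were 20.0% of all genes. Rbl2, a pocket protein gene outside the members, also lay wholly below and is given further on. At an unadjusted p under 0.05 there were 4 members, E2f2, E2f7, E2f8 and Rb1, beside 21.0% of all genes.

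**Figure D2:**
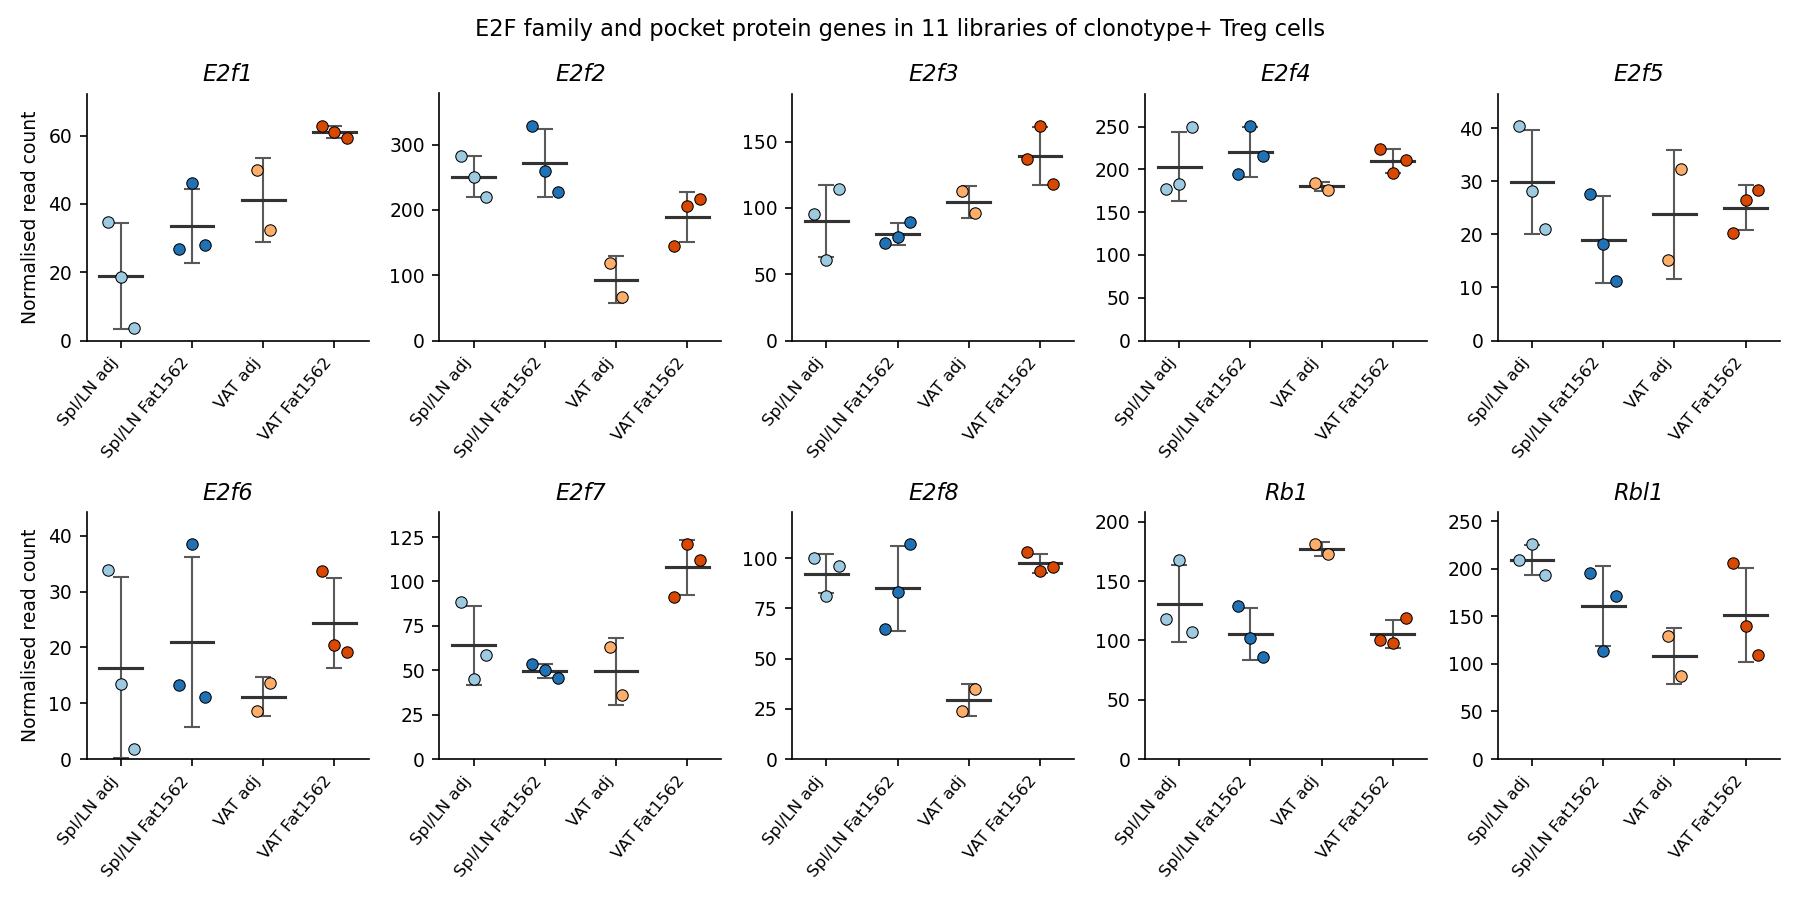
Normalised read count (linear axis from 0, scaled per gene) of the 10 genes in each of the 11 libraries; adj is adjuvant alone, Fat1562 is adjuvant/Fat1562, thick lines are group means and error bars are SD. The 2 libraries of VAT after adjuvant alone are the lowest of all 11 for E2f8 (23.9 and 34.9) and for E2f2 (67.4 and 119), and the highest for Rb1 (173 and 181).

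The same peptide comparison was then made in Spl/LN, where 3.98% of all genes passed (2.58% higher and 1.40% lower). None of the 10 members passed with edgeR, none had an unadjusted p under 0.05 (18.3% of all genes did), and none passed with DESeq2. E2f8 had 100, 81.2 and 95.9 normalised reads after adjuvant alone and 64.8, 83.4 and 107 after adjuvant/Fat1562, so the groups overlapped. Its log2 fold change was −0.12, with a 95% interval of −0.64 to 0.41. E2f2 had 283, 250 and 220 against 329, 259 and 227 normalised reads, with a log2 fold change of 0.11 (95% interval −0.34 to 0.56).

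The other estimates in Spl/LN ran from 0.81 for E2f1 (95% interval −0.29 to 1.91) to −0.66 for E2f5 (−1.67 to 0.36). The E2f1 value rested on 34.7, 18.7 and 3.65 normalised reads after adjuvant alone, the lowest of which came from 4 reads. E2f7 stood at −0.37, Rb1 at −0.31 and Rbl1 at −0.38, with edgeR adjusted p-values of 0.568, 0.501 and 0.438. In every member the Spl/LN groups overlapped, while 11.4% of all genes were wholly higher and 9.84% wholly lower after the peptide. The median of the members was −0.14.

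Whether the peptide response differed between tissues was tested directly, as the VAT log2 fold change minus the Spl/LN one. E2f8 was the member that passed, with a difference of 1.85 (SE 0.40, 95% interval 1.00 to 2.70, edgeR adjusted p = 0.0142), where 3.72% of all genes passed (1.70% higher and 2.02% lower in VAT). Without VAT adjuvant alone replicate 1 the difference did not pass (edgeR adjusted p = 0.102). E2f7 had a difference of 1.48 (SE 0.46, edgeR adjusted p = 0.0859; 0.0405 with DESeq2), E2f2 of 0.90 (SE 0.34, edgeR adjusted p = 0.165) and Rbl1 of 0.86 (SE 0.37, edgeR adjusted p = 0.247). A different response of E2f2 in the 2 tissues was therefore not shown. Rb1 had a difference of −0.44 (95% interval −1.14 to 0.27).

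**Figure D3:**
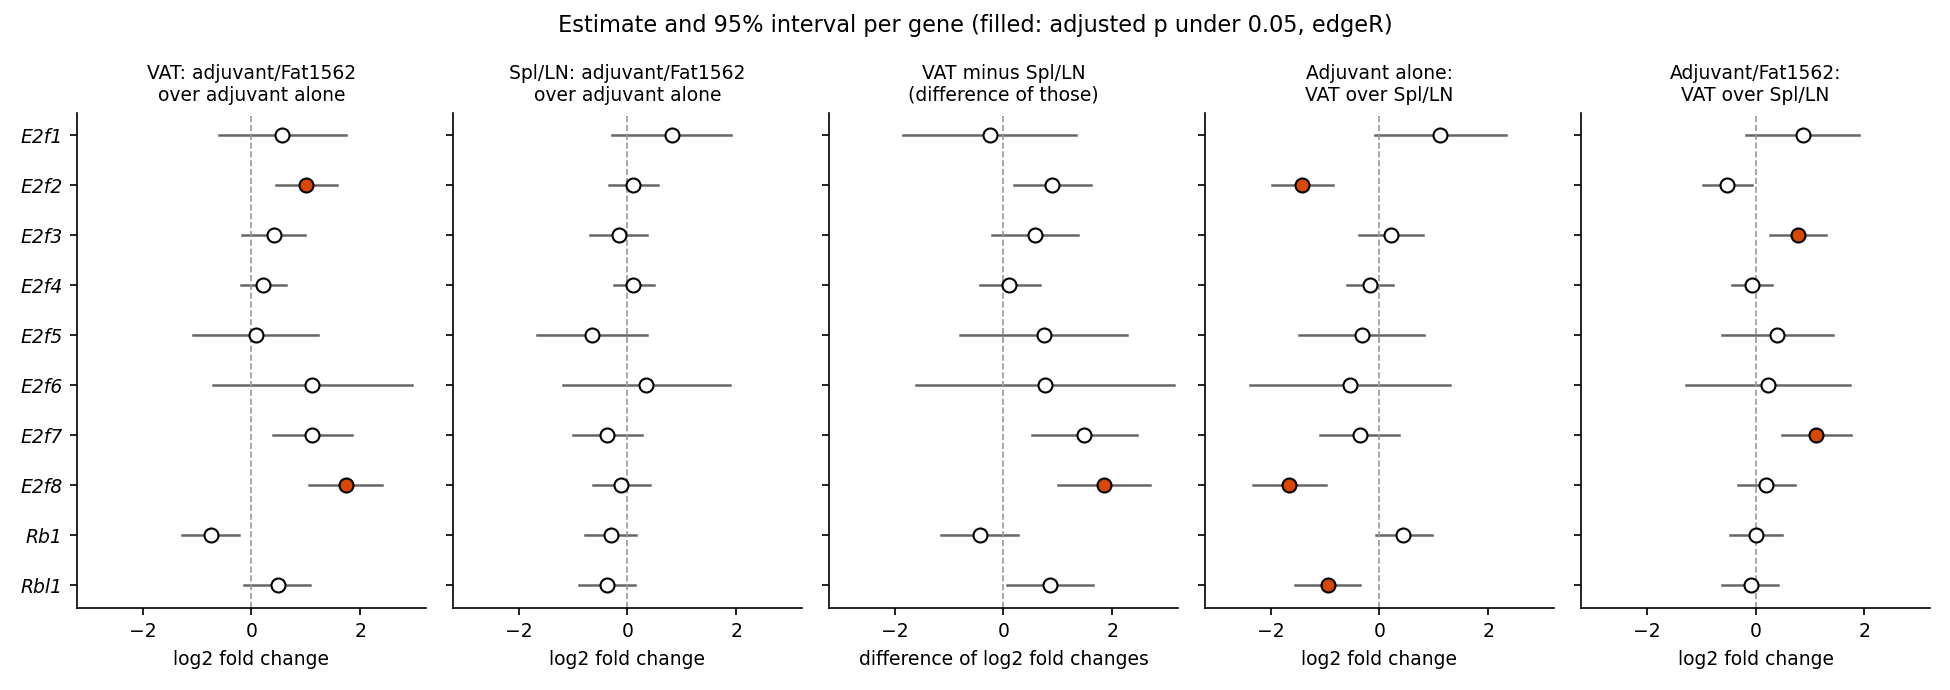
Log2 fold change (horizontal axis) with its 95% interval for each of the 10 genes in the 5 comparisons; filled points passed an edgeR adjusted p of 0.05. E2f8 is filled in VAT (1.73), in the difference between tissues (1.85) and in VAT over Spl/LN after adjuvant alone (−1.66), and no gene is filled in Spl/LN.

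The second question was how VAT and Spl/LN cells of the same clonotype differed without the peptide. E2f2 and E2f8 were lower in VAT, to 0.375 and 0.317 of their Spl/LN level, and so was Rbl1, to 0.518. Over all genes 16.3% passed here, 7.18% lower and 9.09% higher in VAT, against 3 of the 10 members lower and none higher. This comparison shares the 2 VAT adjuvant alone libraries with the peptide comparison in VAT, so a low value in those libraries enters both.

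The E2f8 libraries of VAT (23.9 and 34.9 normalised reads) lay far below those of Spl/LN (81.2 to 100), with a log2 fold change of −1.66 (SE 0.32, edgeR adjusted p = 0.00126). E2f2 had 67.4 and 119 normalised reads in VAT against 220 to 283 in Spl/LN, a log2 fold change of −1.42 (SE 0.26, edgeR adjusted p = 0.000983). Both calls held in all 19 alternative fits. Rbl1, which encodes the pocket protein known to bind E2f4, had 129 and 87.3 normalised reads in VAT and 209, 226 and 194 in Spl/LN. The groups did not overlap, and the log2 fold change was −0.95 (SE 0.29, edgeR adjusted p = 0.0300). The Rbl1 call was lost without Spl/LN adjuvant alone replicate 1 or 2 (edgeR adjusted p = 0.0517 and 0.0710) and without VAT adjuvant alone replicate 2 (−0.71, edgeR adjusted p = 0.247).

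E2f2, E2f8 and Rbl1 were the members whose VAT libraries lay wholly below Spl/LN, as 20.4% of all genes did. Rb1 lay wholly above, with 181 and 173 against 118, 168 and 107 normalised reads, as 20.9% of all genes did, and its log2 fold change of 0.44 did not pass (edgeR adjusted p = 0.251). E2f1 had an estimate of 1.12 (95% interval −0.09 to 2.32, edgeR adjusted p = 0.208), which was 1.90 (edgeR adjusted p = 0.0365) without Spl/LN adjuvant alone replicate 1, the highest of the widely spread libraries named above. E2f3, E2f4, E2f5, E2f6 and E2f7 had estimates from −0.55 to 0.21 and did not pass.

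After adjuvant/Fat1562 the members called between tissues were E2f7 and E2f3. These 3 VAT libraries also enter the peptide comparison in VAT. With edgeR, the direct test of the difference above passed for neither gene (E2f7 1.48, edgeR adjusted p = 0.0859, and E2f3 0.57, edgeR adjusted p = 0.482). E2f7 was 2.17-fold and E2f3 1.72-fold higher in VAT than in Spl/LN, and none was called lower, where 15.0% of all genes passed (8.26% higher and 6.73% lower). E2f7 had 91.0, 121 and 112 normalised reads in VAT against 53.4, 50.2 and 45.6 in Spl/LN, every VAT library being above every Spl/LN library. Its log2 fold change was 1.12 (SE 0.30, edgeR adjusted p = 0.0160). The call was lost without Spl/LN adjuvant/Fat1562 replicate 2 (1.13, edgeR adjusted p = 0.0526) or replicate 3 (1.06, edgeR adjusted p = 0.0642), or without VAT adjuvant/Fat1562 replicate 2 (1.03, edgeR adjusted p = 0.0742).

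E2f3, another activator, had 137, 162 and 118 normalised reads in VAT and 73.4, 78.0 and 89.7 in Spl/LN. The libraries did not overlap, and the log2 fold change was 0.78 (SE 0.25, edgeR adjusted p = 0.0392). It was the least stable of the calls: 7 of 19 alternative fits lost it, with edgeR adjusted p-values up to 0.171 when VAT adjuvant/Fat1562 replicate 2 was left out. The others were the removal of VAT adjuvant/Fat1562 replicate 1 (edgeR adjusted p = 0.0951) or of any 1 of the 3 Spl/LN adjuvant/Fat1562 libraries (0.128, 0.110 and 0.0635), the fit without a filter and the quantile normalised fit. E2f1, E2f3 and E2f7 were wholly higher in VAT, beside 18.8% of all genes, and E2f2 was wholly lower, beside 17.4%, with a log2 fold change of −0.52 (95% interval −0.97 to −0.06, edgeR adjusted p = 0.125).

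E2f8 had a log2 fold change of 0.19 between the tissues after the peptide (95% interval −0.33 to 0.72, edgeR adjusted p = 0.682), with 103, 93.6 and 95.7 normalised reads in VAT and 64.8, 83.4 and 107 in Spl/LN. Rb1 stood at 0.01 (−0.47 to 0.48) and Rbl1 at −0.09 (−0.61 to 0.42). The Spl/LN and VAT libraries overlapped in all 3 genes.

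Transcripts of genes whose products work with the family were taken from lists of known genes, and protein was not measured. The Tfdp partners Tfdp1 and Tfdp2, with which E2f1 to E2f6 bind DNA, and the pocket protein gene Rbl2 passed in none of the 5 comparisons. In VAT their log2 fold changes after the peptide were 0.31, 0.34 and −0.28 (edgeR adjusted p = 0.446, 0.225 and 0.102). Rbl2, the p130 gene, was at 1369 to 1667 normalised reads in all 4 group means. In VAT it had 1606 and 1727 normalised reads after adjuvant alone. After adjuvant/Fat1562 it had 1392, 1304 and 1429, so its peptide libraries lay wholly below, like those of Rb1.

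Of the regulators upstream of the pocket proteins, 10 G1 cyclins and kinases were tested. In VAT, 2 rose after the peptide, Ccne2 (log2 fold change 1.84, SE 0.38, edgeR adjusted p = 0.00467), a cyclin E that activates Cdk2, and Ccna2 (0.66, edgeR adjusted p = 0.00709). Ccnd2, a D-type cyclin gene, fell by 0.61 on the log2 scale (edgeR adjusted p = 0.00236). Ccnd1, Ccnd3, Cdk4, Cdk6, Ccne1, Cdk2 and Cdc25a did not pass, with estimates from 0.06 to 0.63. In Spl/LN none of the 10 passed, and the direct test of the difference between tissues passed for Ccne2 (2.06), Ccna2 (0.90) and Ccnd2 (−0.75), with edgeR adjusted p-values of 0.0227, 0.0111 and 0.00992. Between tissues without the peptide, Ccnd2 (0.75) and Cdk6 (0.56) were higher in VAT and Ccnd3 (−0.94), Cdk4 (−0.33) and Ccna2 (−0.55) lower. After it, Ccne2 (1.04) and Cdk6 (0.59) were higher in VAT and Ccnd3 (−1.10) lower.

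Of 7 inhibitors of these kinases, 5 passed the filter on low counts and Cdkn1c and Cdkn2a did not. Cdkn1a (p21) had a group mean of 1430 ± 187 (SD, n = 2) normalised reads in VAT after adjuvant alone and 749 ± 124 (n = 3) after adjuvant/Fat1562, and fell by 0.94 on the log2 scale (edgeR adjusted p = 0.00668). Its mean in Spl/LN was 40.7 ± 17.1 (n = 3) and 64.3 ± 13.9 (n = 3). Cdkn2d (p19) went from 625 ± 59.7 (n = 2) to 323 ± 14.7 (n = 3) in VAT and fell by 0.95 (edgeR adjusted p = 0.000576). Cdkn1b (−0.09), Cdkn2b (−1.31) and Cdkn2c (−0.27) did not pass in VAT. Without the peptide, Cdkn1a (5.14), Cdkn2b (1.94) and Cdkn1b (0.53) were higher in VAT than in Spl/LN, and after it Cdkn1a (3.55) and Cdkn1b (0.42) were higher and Cdkn2d (−0.46) lower. None passed for the peptide in Spl/LN, and the direct test of the difference between tissues passed for Cdkn1a (−1.58) and Cdkn2d (−0.81).

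The targets were taken as 45 known E2F-driven genes of replication, nucleotide supply, chromatin assembly and mitosis, all of them tested. The list was drawn up with results of these samples known, so its direction is not independent evidence. In VAT after the peptide 19 of 45 rose and none fell, 44 had a positive estimate and the median log2 fold change was 0.66, against 0.01 over all genes. The largest rises were in Uhrf1 (1.03), which recruits the maintenance DNA methyltransferase, Prim1 (1.02), a primase subunit, and Asf1b (0.88), a histone chaperone, with edgeR adjusted p-values of 0.0168, 0.0210 and 0.0188. In Spl/LN none rose, Tipin, a replication fork protein, fell by 0.54 (edgeR adjusted p = 0.0462), and the median was −0.16. The difference between tissues passed for 4 (median 0.75), of which Tk1 (1.08), Rrm2 (1.02) and Cdk1 (0.93) had the largest values and Tipin (0.81) was the other.

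Between tissues without the peptide, 1 of the 45 targets was higher in VAT and 4 were lower (median −0.14): Lig1, DNA ligase I, was higher by 1.18, and Rrm2 (−0.99), Asf1b (−0.90), Msh6 (−0.58) and Dck were lower. Dck, a nucleoside kinase, had a mean of 372 ± 47.7 (SD, n = 2) normalised reads in VAT and 744 ± 57.4 (n = 3) in Spl/LN. After the peptide 21 were higher in VAT and none lower (median 0.65), led by Brca1 (1.53), Lig1 (1.46) and Orc1 (1.39). The edgeR adjusted p-values of those 3 were 0.00251, 5.41e-06 and 0.0457.

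**Figure D4:**
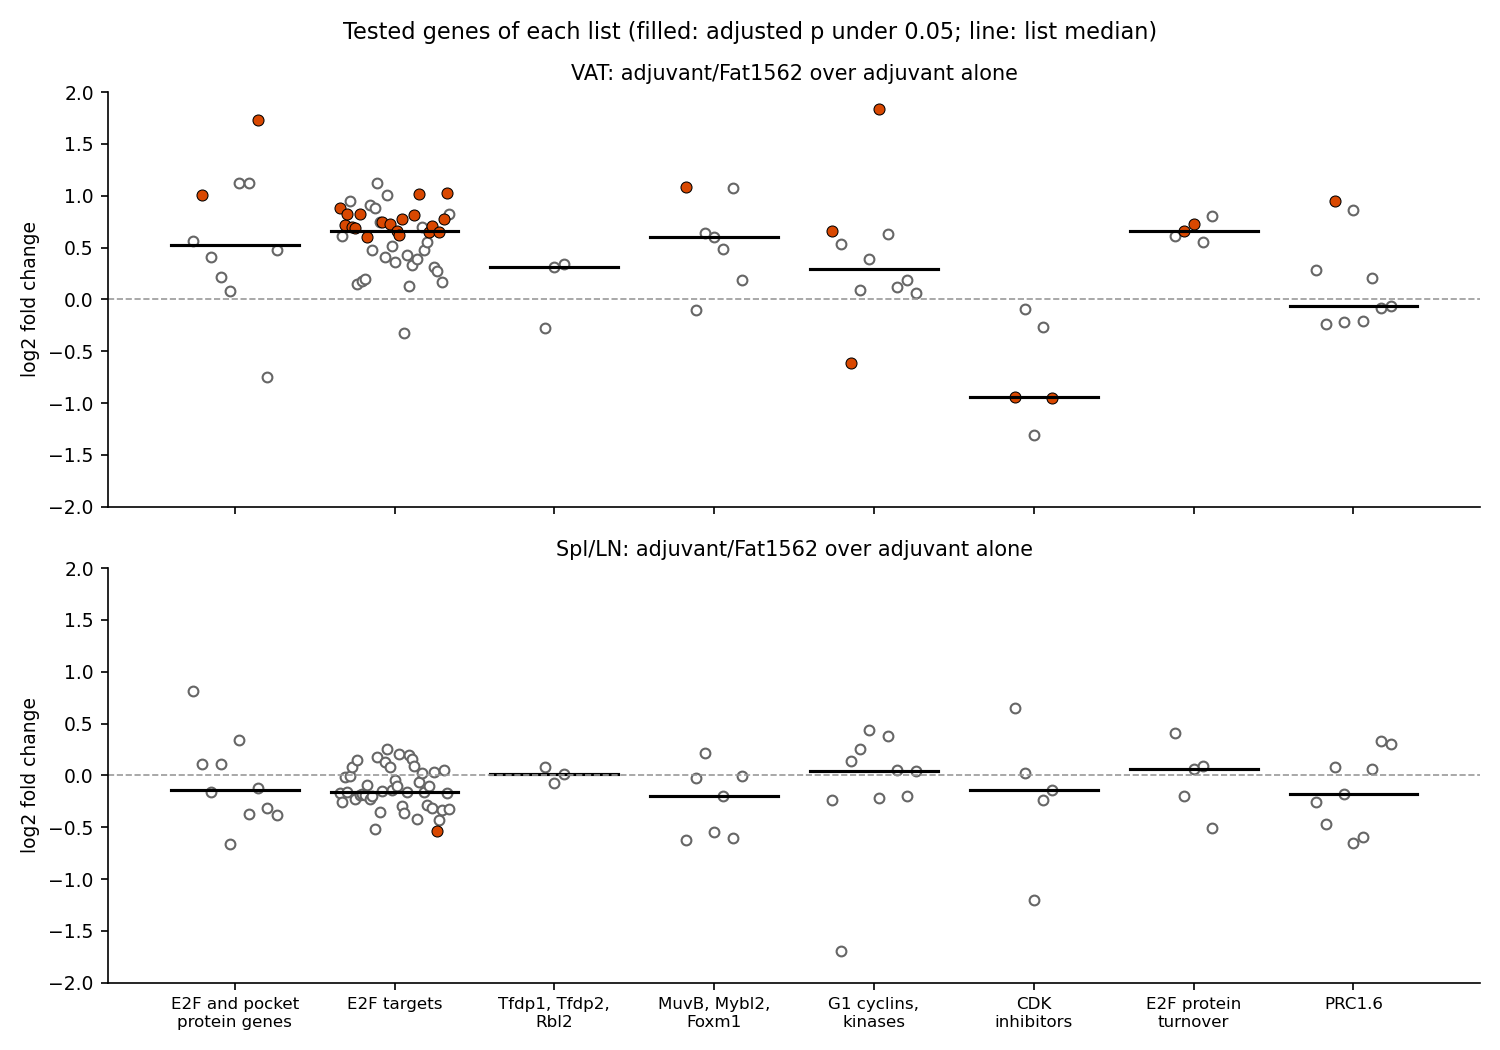
Log2 fold change of adjuvant/Fat1562 over adjuvant alone for every tested gene of 8 lists, in VAT (top) and Spl/LN (bottom); filled points passed an edgeR adjusted p of 0.05 and black lines are list medians. In VAT the medians are 0.52 for the 10 E2F and pocket protein genes and 0.66 for the 45 targets, and in Spl/LN they are −0.14 and −0.16.

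Of 7 subunits and partners of the MuvB complex, which joins Rbl1 or Rbl2 with E2f4 or E2f5 at repressed genes and Mybl2 and Foxm1 at active ones, Foxm1 was the one that passed. It rose in VAT by 1.08 (edgeR adjusted p = 0.0259), was lower in VAT than in Spl/LN without the peptide (−1.48, edgeR adjusted p = 0.00152) and differed between tissues in its response (1.70, edgeR adjusted p = 0.0151). Lin9, Lin37, Lin52, Lin54, Rbbp4 and Mybl2 did not pass in any comparison. Among 5 genes for E2F protein turnover, Fbxo5 (0.73), which holds back the APC/C ligase, and Cdc20 (0.66), an APC/C activator, rose in VAT (edgeR adjusted p = 0.0381 and 0.0437). Ccnf, Skp2 and Fzr1 did not, with estimates from 0.55 to 0.80. Fbxo5 was lower in VAT than in Spl/LN without the peptide (−0.69).

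Of the 10 genes of PRC1.6, the Polycomb complex in which E2f6 acts, 9 were tested and Rybp was too low. Max rose in VAT after the peptide (0.95, edgeR adjusted p = 0.00402) and is also the partner of Myc. The other 8 tested genes, Pcgf6, L3mbtl2, Mga, Rnf2, Ring1, Cbx3, Wdr5 and Yaf2, did not pass in VAT. Without the peptide Pcgf6 (−1.67), Max (−0.61) and Rnf2 (−0.56) were lower in VAT than in Spl/LN, and Yaf2 (0.71) was higher. E2f6 itself had no call in any comparison.

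Genes whose pattern over the 11 libraries was nearest to a member's were found by the mean absolute difference of centred log2(normalised count + 1) values. For E2f7 these were Mcm5 (0.19), Mcm7 (0.19) and Tk1 (0.20), all of them on the target list above. For E2f8 they were 2310015A10Rik (0.20), Hist1h2ak (0.22) and Ahdc1 (0.22). The group means of Ahdc1 were 126, 152, 54.1 and 151 normalised reads in Spl/LN after adjuvant alone, Spl/LN after adjuvant/Fat1562, VAT after adjuvant alone and VAT after adjuvant/Fat1562, beside 92.5, 85.2, 29.4 and 97.6 for E2f8. For E2f2 they were Nop9 (0.17), Nol9 (0.17) and Smap1 (0.18), for E2f3 Rab26 (0.11), Bmpr2 (0.12) and Ptma (0.12), and for Rbl1 Zfp606 (0.14), Ttc3 (0.16) and AC124732.4 (0.18).

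The libraries held 4490242 to 6570057 counted reads, and the members had from 2 reads (E2f6 in Spl/LN after adjuvant alone) to 345 (E2f2 in Spl/LN after adjuvant/Fat1562). Foxp3 and Cd4 had group means of 7100 to 9831 and 2396 to 3397 normalised reads, and all 8 VAT Treg marker genes were higher in VAT than in Spl/LN after adjuvant alone. The proliferation markers Mki67 (0.74) and Top2a (0.75) rose in VAT with the peptide, while in the same comparison 6 of the 8 VAT Treg markers fell. Of these 2 proliferation markers, 1 was called lower in VAT than in Spl/LN without the peptide (median −0.33). After it, both were called higher in VAT (median 0.52). The difference in response passed for 1 (median 0.85), and neither passed for the peptide in Spl/LN. Summed B cell and plasma cell markers (7 genes) ranged from 123 to 723 normalised reads in Spl/LN after adjuvant alone, 155 to 199 after adjuvant/Fat1562, 164 to 1901 in VAT after adjuvant alone and 76.4 to 133 after adjuvant/Fat1562. The highest was VAT adjuvant alone replicate 2, with 1388 reads of Jchain, an antibody chain gene of plasma cells. E2f8 rose in VAT without that library too (2.03, edgeR adjusted p = 0.0112), and E2f2 did not pass without it (0.67). Of the other marker sums, fat, stroma and vessel markers (7 genes, mostly Pecam1 reads) were at 264 to 308 in VAT after adjuvant alone and 450 to 621 elsewhere. Adipoq, the adipocyte hormone gene, was at 0 in both VAT libraries after adjuvant alone and had at most 9 reads in any other library. Myeloid (7 genes) sums were 32.4 to 140, CD8 and NK (4 genes) sums 95.7 to 195 and erythroid (4 genes) sums at most 32.0 over all libraries. The part of these marker genes in the results was not tested.

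In the annotation (GENCODE vM21, GRCm38), E2f8 lies on chr7:48866429-48881596, minus strand, and shares 610 exon bases with the noncoding gene Gm2788 on the opposite strand. Of its 38-base stretches 9.08% occur in other genes. Gm2788 itself had 0 to 10 reads per library. E2f7 (chr10:110745439-110787384, plus strand) shares 86 exon bases with the antisense gene 1700020G17Rik, which had 0 to 2 reads, and E2f5 (chr3:14578641-14606309, plus strand) shares 26 with 1810022K09Rik. Rb1 lies on chr14:73183673-73325822, minus strand, Rbl1 on chr2:157145893-157204534, minus strand, E2f2 on chr4:136172394-136196057, plus strand, and E2f3 on chr13:29906575-29986063, minus strand. For E2f2, E2f3, E2f5 and E2f6 no 38-base exon stretch was found elsewhere, and for E2f1, E2f4, E2f7 and Rbl1 the share was at most 1.91%.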

How the data were processed

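Paired reads of 2 x 38 bases were made from Smart-seq2 libraries without molecular identifiers. The deposited table holds whole-number read counts per gene symbol, which the authors made before deposit. The submitters' processing notes name STAR 2.5.4, featureCounts and mm10, and the study's methods name Cuffquant; the annotation and strand setting are not given in the sources used here. Count totals were 4490242 to 6570057 per library.

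Counts as deposited were fitted in edgeR 4.0.16 (quasi-likelihood test, TMM factors) with all 4 groups in 1 model. A gene was kept where its mean in any group exceeded 10, and p-values were adjusted by Benjamini-Hochberg over 12932 genes. SEs are the log2 fold change over the root of F. Normalised counts are counts over TMM-scaled library size, times the mean library size. Samples were grouped by their labels. Every member was tested in every comparison and named where it passed, but not every estimate that did not pass is printed. Named besides were the genes of the partner and regulator lists of 10 or fewer. So were the 3 called genes of largest change per comparison of the longer list. Genes sharing exon bases with a member and the nearest 3 genes by pattern were named too. Marker lists are given mostly as counts or sums. Msh6, Asf1b and Tipin, where they complete a count, were named after their values were seen. The members, gene lists and tests were chosen with earlier results of these data known.

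Replicates are described as biological, but the labels do not tie them to animals, so p-values measure the spread between these libraries. Within groups, libraries differed by far more than sampling noise (chi-square over degrees of freedom 5.33 to 11.4). Same-numbered libraries of different groups did not deviate together (correlations −0.04 to 0.06 over 15 pairs). Alternatives were other filters, median-of-ratios scaling, quantile normalisation with limma 3.58.1, DESeq2 1.42.0, only the groups compared, a replicate block and leaving out each library. The fits were tested on simulated counts. Exon overlaps, lengths and 38-base matches come from GENCODE vM21, and promoter windows from RefSeq (GRCm38.p6). Intervals on reads cover counting error only. Figures were drawn with matplotlib 3.10.9.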

Additional observations from a re-analysis of the deposited data

Results flagged for a closer look

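E2f8 was picked out by a difference between groups. Its log2 fold change for adjuvant/Fat1562 over adjuvant alone was 1.73 for VAT cells but −0.12 for Spl/LN cells. The direct test of the difference gave 1.85 (SE 0.40, edgeR adjusted p = 0.0142). The 3 VAT libraries with the peptide (93.6 to 103 normalised reads) all lay above the 2 without it (23.9 and 34.9), while the Spl/LN groups overlapped (64.8 to 107 and 81.2 to 100). The difference passed in 17 of 18 alternative fits.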

How the results depend on the processing

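Of the 8 member calls, E2f2 and E2f8 between tissues without the peptide held in all 19 alternatives; the libraries that end the others stand beside them above. Of 772 alternative values of the 42 results that were not called, 27 had the other sign and 13 were called. Members called for the peptide in VAT went from 2 to 4 with DESeq2 and with only the groups compared, where E2f7 and Rb1 joined. Calls over all genes rose in these fits too. They went from 560 higher and 514 lower to 690 and 637 with DESeq2, and to 697 and 660 with only the groups compared. In VAT over Spl/LN after the peptide, members called went from 2 to 1 without a filter and with quantile normalisation (E2f3 lost), where Rb1 stood at −0.00 in both. They went to 3 with only the groups compared, where E2f1 joined (0.87, edgeR adjusted p = 0.0498). Calls over all genes went from 1938 to 1887, 1972 and 2586 in those fits. For the difference in response, members called went from 1 to 2 with DESeq2 (E2f7). Genes called for the peptide in Spl/LN went from 515 to 793 without a filter and to 793 with DESeq2, and those for the difference in response from 481 to 789 with DESeq2.

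With single libraries left out, members called ranged from 1 to 4 (peptide in VAT), 0 to 2 (between tissues after the peptide) and 0 to 2 (difference in response). Genes called ranged from 508 to 1394 for the peptide in VAT, with 545 and 508 when VAT adjuvant alone replicate 1 or 2 was left out and 623 without VAT adjuvant/Fat1562 replicate 2. They ranged from 190 to 502 for the peptide in Spl/LN (lowest without Spl/LN adjuvant/Fat1562 replicate 2, with 334 and 319 without replicates 1 and 3), 1259 to 2114 between tissues without the peptide (1259 and 1367 without VAT adjuvant alone replicate 1 or 2), 1289 to 2378 after it (lowest without VAT adjuvant/Fat1562 replicate 2) and 240 to 576 for the difference in response (240 and 287 without VAT adjuvant alone replicate 1 or 2, 310 without Spl/LN adjuvant/Fat1562 replicate 2, 276 without VAT adjuvant/Fat1562 replicate 2). The causes were not tested.

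Signs that turned when a library was left out were all of small or noisy values. For the peptide in VAT, E2f5 ranged from −0.37 to 0.72. For the peptide in Spl/LN, E2f2 ranged from −0.05 to 0.23, E2f3 from −0.38 to 0.05, E2f6 from −0.41 to 1.45 and E2f8 from −0.32 to 0.04. Between tissues without the peptide, E2f3 ranged from −0.00 to 0.42, E2f4 from −0.26 to 0.00, E2f5 from −0.97 to 0.11 and E2f6 from −1.08 to 0.56. After it, E2f4 ranged from −0.15 to 0.04, E2f6 from −0.08 to 0.98, Rb1 from −0.13 to 0.18 and Rbl1 from −0.37 to 0.10. For the difference in response, E2f1 ranged from −1.04 to 0.25, E2f4 from −0.07 to 0.21 and E2f6 from −0.33 to 1.53.

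The replicate numbers are not stated to pair libraries, and same-numbered libraries did not deviate together. With a replicate block, genes called were 990 (peptide in VAT), 515 (peptide in Spl/LN), 1803 and 1860 (between tissues without and with the peptide) and 437 (difference in response), and members called were 2, 0, 3, 2 and 1, the same numbers as without it. Precision is limited by the 2 VAT adjuvant alone libraries and by the few reads of E2f1, E2f5 and E2f6.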
